A study of Sus scrofa with 220 samples.

Results

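The genes described here are the ligand, receptors and transcription factor of one cytokine pathway in the pig embryo: IL6, IL6R, IL6ST, LIFR and STAT3. They were found in the files by the Ensembl pig identifiers that carry these symbols, ENSSSCG00000020970 for IL6, ENSSSCG00000027628 for IL6R, ENSSSCG00000016916 for IL6ST, ENSSSCG00000016850 for LIFR and ENSSSCG00000017403 for STAT3. The gene name table pairs each symbol with a single entry. Gene lists of the study carry the symbol IL6R more than once, and any further IL6R entry was not analysed here, so that all IL6R levels, shares and zeros are those of the entry named. The genes are 5 of 22840 gene entries, and all 5 were among the 14721 that passed the filter on low values (TPM above 1 in at least 3 cells). LIF, the ligand of LIFR, was not analysed here. The files give no coordinates for these entries, so no positions are given.

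The measurements were full-length single-cell transcriptomes (Smart-seq2) of 220 cells from 28 embryos, flushed from the uteri of crossbred Large White and Landrace sows after artificial insemination. The cells carried 7 labels: morula (M, 47 cells of 8 embryos, of which 1 cell, whose identifier carries the letters of an LB embryo, was placed in no embryo), early blastocyst inner cell mass (EB ICM, 24 cells of 7 embryos) and trophectoderm (EB TE, 28 cells of 10 embryos), late blastocyst epiblast (LB EPI, 25 cells of 4 embryos) and hypoblast (LB HYPO, 36 cells of 5 embryos), and spherical embryo epiblast (Sph EPI, 48 cells of 4 embryos) and hypoblast (Sph HYPO, 12 cells of 3 embryos). Trophectoderm cells of the late blastocyst and the spherical embryo were not collected. The ligand could therefore be compared with the TE at the EB stage alone. In the paper, M and EB embryos were dissociated whole. LB trophectoderm was lysed with antiserum and complement, and Sph epiblast and hypoblast were separated by hand. By the sex that the paper inferred from Y chromosome transcripts, most LB HYPO cells were female and all Sph HYPO cells male. The part of isolation and of sex in differences between stages was not tested. Levels are given as TPM (transcript abundance scaled by gene length and depth) for cells, and as log2(CPM + 1), where CPM scales a count by library depth, for the summed counts of the cells of one label in one embryo (41 sums).

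IL6 is a secreted cytokine. It binds IL6R, which has no signalling activity of its own, and the complex recruits IL6ST (also called GP130), the signalling chain shared by the receptors of the whole cytokine family. LIFR is the partner chain of IL6ST for LIF. Janus kinases bound to IL6ST phosphorylate STAT3, which then enters the nucleus and activates transcription, and in mouse embryonic stem cells this route sustains self-renewal.

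The cells held 1012604 to 5696373 counts (median 2006854), and no 2 cells shared a library pool and index pair. KRT8, GATA3 and DAB2, which mark trophectoderm, had median levels of 28350, 100 and 1444 TPM in cells labelled EB TE, against 148, 0 and 0.447 TPM in EB ICM. The paper clustered these same transcriptomes and named lineages by known markers, with GATA3 and DAB2 among those for TE. These levels are therefore no independent check of the EB labels. Summed over 7 hypoblast markers, embryos ran from 856 to 3030 TPM in LB HYPO and from 1253 to 3428 TPM in Sph HYPO, against 237 to 735 TPM in EB ICM, 164 to 491 TPM in M and at most 86.1 TPM in either epiblast group. FN1, a matrix gene and the most abundant of them in both hypoblast groups, had medians of 881 TPM in LB HYPO and 1173 TPM in Sph HYPO, against 115 TPM in EB ICM and 9.97 TPM in Sph EPI. PDGFRA and GATA6 went the other way against EB ICM, with medians of 78.6 and 74 TPM there and 51.1 and 16.7 TPM in LB HYPO. NODAL, an epiblast signal, was above TPM 1 in 39 of 48 Sph EPI and 11 of 25 LB EPI cells. Of 5 leukocyte markers, PTPRC, the pan-leukocyte gene, had no count in any cell, while CD14 was above TPM 1 in 7 of 25 LB EPI cells, CD68 in 6 of 36 LB HYPO cells, MS4A1 in 4 of 24 EB ICM cells and LYZ in 1 EB ICM cell. Their summed level by embryo ran from 0 to 107 TPM in EB ICM, and to at most 21.3 TPM in any other group. Sph HYPO cells also carried some transcripts of the trophectoderm list, with a median KRT8 of 27040 TPM. GATA3 was above TPM 1 in 9 of 12 of these cells, and KRT18 and DAB2 in 12 of 12. Others of the list went the other way, with GATA2 and CDX2 above TPM 1 in 0 of 12 and TFAP2A in 2 of 12. KRT8 was also above TPM 1 in 48 of 48 Sph EPI cells (median 5862 TPM). NODAL was above TPM 1 in 6 of 12 Sph HYPO cells. The part of these in the Sph HYPO values was not tested. CDX2, another trophectoderm gene, was above TPM 1 in 1 of 28 EB TE cells. One cell went against its label: the single EB TE cell of embryo E6-ER had no count of KRT8, GATA3 or DAB2 and 1 count of KRT18. Several EB TE results are given with and without this cell. The others, among them the counts of cells with several genes, include it. Of the 41 sums, 6 held 1 cell. Intervals on shares of cells below are exact (Clopper-Pearson, 95%) and treat each cell as independent. Cells of one embryo are not independent, so the intervals cover counting error only and not the spread between embryos. Of the 36 LB HYPO cells, embryos AM and AO gave 14 and 16, and of the 12 Sph HYPO cells embryo F gave 8. The reads carry no molecular identifiers.

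**Figure D1:**
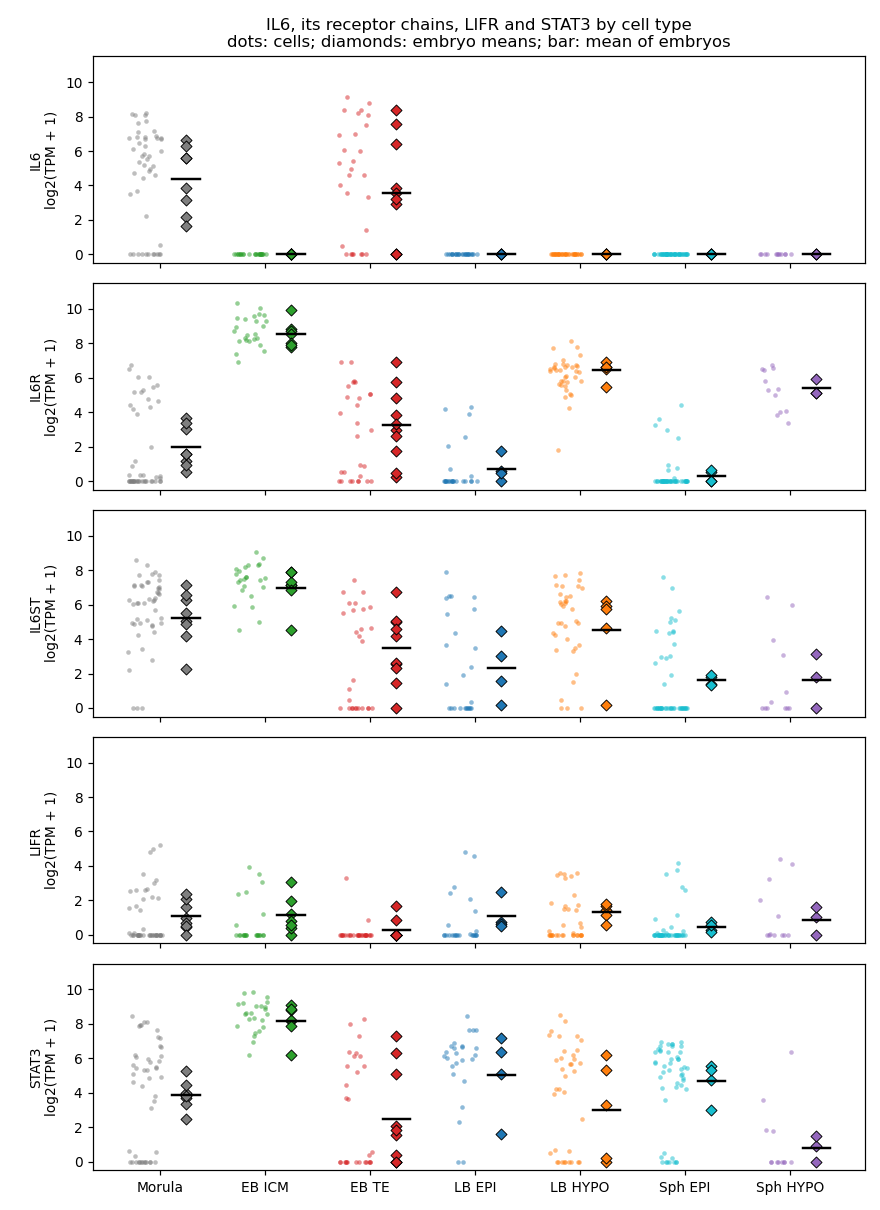
Level of each gene, log2(TPM + 1), in the 7 cell types; dots are cells, diamonds are embryo means and the bar is the mean of embryos. IL6 is at 0 in every cell outside M and EB TE, IL6R is above 0 in every EB ICM, LB HYPO and Sph HYPO cell, and IL6R, IL6ST and STAT3 have their highest mean in EB ICM.

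IL6, the ligand, was measured in M and EB TE and in no other cell type. IL6 was above TPM 1 in 35 of 47 M cells (74.5%, interval 59.7 to 86.1%, median 45 TPM) and in 20 of 28 EB TE cells (71.4%, interval 51.3 to 86.8%, median 27 TPM). No IL6 count was found in the 24 cells of EB ICM, the 25 and 48 epiblast cells of LB and Sph or the 36 and 12 hypoblast cells. These 145 cells of 17 embryos together held 316788920 counts. By counting error alone a count of 0 allows up to 3 counts, or 0.00947 CPM, and 3 cells correspond to 2.07% of cells. For EB ICM alone the same limits were 0.0556 CPM and 12.5% of cells, and the exact upper limit for 0 of 24 cells was 14.25%. The shares limit cells with an IL6 count, not cells that express the gene. Amplified reads of one cell are not independent. The CPM limits, and the fold bounds below that rest on a floor of 3 counts, therefore cover counting error only.

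All 8 M embryos had IL6 counts. Their IL6 levels ran from 6.74 CPM in embryo Y through a median of 66.1 CPM to 79.9 CPM in embryo T, with a mean of 5.37 ± 1.31 (SD, n = 8) on the log2(CPM + 1) scale. Embryos X and Y, with log2 levels of 3.66 and 2.95, were the lowest, and the other 6 lay between 5.49 and 6.34. In embryos T, W and ER every cell was above TPM 1, in embryo S it was 4 of 8 cells, and in embryo X 3 of 7.

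EB TE embryos varied more. Their IL6 level ran from 0 through a median of 12.9 CPM to 206 CPM in embryo AF, with a log2 mean of 3.70 ± 3 (SD, n = 10), or 4.11 ± 2.87 (SD, n = 9) without E6-ER. Embryos AF, AB and AA, which hold 1, 9 and 2 TE cells, were the highest, with log2 levels of 7.69, 7.36 and 6.91. Embryos AC, AD, AH and AI lay between 3.45 and 4.03. Embryos AE, AG and E6-ER, which hold 2, 1 and 1 TE cells, had no count. The M sums held 2 to 10 cells, and the part of cell number in the wider spread of EB TE was not tested.

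Over summed counts IL6 was at least 920-fold higher in M than in EB ICM (5294 counts against 0, set against a floor of 3 counts over the group), and the fitted log2 difference was 12.06 (edgeR's quasi-likelihood test, Benjamini-Hochberg adjusted p = 0.000337, higher in 8 of 8 M embryos than in any ICM embryo). Between EB TE and EB ICM the same bound was at least 1278-fold (4282 counts against 0), with an edgeR adjusted p of 0.0427. That call was fragile. With the embryo as a block the edgeR adjusted p was 0.173, and it was above 0.05 without any one of 14 of the 17 sums (up to 0.0799 without ICM embryo AG). The adjusted p stayed below 0.05 without TE embryo AE, AG or E6-ER, which are the TE sums with no IL6 count. Within the first and the last 4 library pools it was 0.165 and 0.214, and limma on mean log2(TPM + 1) gave 0.183. M and EB TE did not differ detectably in IL6 (log2 difference -0.04, SE 1.10, edgeR adjusted p = 1).

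Among EB TE cells, those with and without IL6 differed in their receptor transcripts. The median IL6R level was 0.419 TPM in the 20 cells above TPM 1 for IL6 and 48.6 TPM in the 8 others (44.4 TPM in 7 without E6-ER). The corresponding IL6ST medians were 0.57 and 37.3 TPM (50.4 TPM without E6-ER), while the STAT3 medians were 0.152 and 22.9 TPM and the second fell to 0.48 TPM without E6-ER. Both sets carried trophectoderm transcripts, with KRT8 medians of 30090 and 23960 TPM, and their median depths were 2017572 and 1687782 counts. The 8 others include the cells of embryos AE, AG and E6-ER, which had no IL6 count, so embryos differ between the sets. Cells of one embryo are not independent, so these are descriptions without a test. In M the receptor medians went the other way. They were 76.7 TPM of IL6ST and 0.205 TPM of IL6R in the 35 cells above TPM 1 for IL6, against 31.4 and 0 TPM in the 12 others. The M medians of STAT3 were 29.4 and 48.5 TPM. In M, 13 cells had both IL6 and IL6R, 22 had IL6 alone, 4 had IL6R alone and 8 had neither.

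IL6R, the ligand-binding chain, was a transcript of EB ICM and of both hypoblast groups. IL6R was above TPM 1 in 24 of 24 EB ICM cells (lower interval limit 85.8%), where it ran from 121 to 1311 TPM with a median of 394 TPM, in 36 of 36 LB HYPO cells (lower limit 90.3%, median 83.6 TPM) and in 12 of 12 Sph HYPO cells (lower limit 73.5%, median 38.7 TPM). It was above TPM 1 in 5 of 25 LB EPI cells, 5 of 48 Sph EPI cells, 17 of 47 M cells and 15 of 28 EB TE cells (14 of 27 without E6-ER). In every one of the 8 library pools all EB ICM cells were above TPM 1, and the same held for LB HYPO and for Sph HYPO cells, each in the 7 pools that held any.

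By embryo, IL6R in EB ICM ran from 580 through 962 to 2806 CPM, with a log2 mean of 10.05 ± 0.80 (SD, n = 7). The 5 LB HYPO embryos AL, AM, AN, AO and AP had log2 levels of 7.92, 7.41, 8.48, 8.62 and 8.11, and the 3 Sph HYPO embryos C, E and F had 7.67, 7.30 and 7.05. Embryo levels of EB ICM and LB HYPO did not overlap, nor did those of Sph HYPO and M, the next group in order, while LB HYPO and Sph HYPO overlapped. M had a log2 mean of 5.10 ± 1.4 (SD, n = 8) and EB TE 4.96 ± 2.39 (SD, n = 10, from 0.50 in embryo AA to 7.92 in E6-ER; 4.63 ± 2.28 without E6-ER), and these did not differ beyond their spread. In the epiblast, embryos AN, AO, AP and AQ of LB EPI had levels of 0, 3.94, 1.5 and 2.95, and embryos C, D, E and F of Sph EPI 2.52, 0, 0 and 2.54. Epiblast and hypoblast did not overlap at either stage.

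EB ICM exceeded every other group it was tested against in IL6R. These comparisons share the 7 ICM sums and are not independent of one another. The log2 difference was 4.69 to M (SE 0.58, edgeR adjusted p = 0.000134), 4.17 to EB TE (SE 0.77, edgeR adjusted p = 0.00844), 7.66 to LB EPI (SE 1.07, edgeR adjusted p = 0.000908), 2.09 to LB HYPO (SE 0.39, edgeR adjusted p = 0.00686) and 8.94 to Sph EPI (SE 1.42, edgeR adjusted p = 0.00156). The differences to M, LB EPI and Sph EPI passed under every alternative setting. The difference to EB TE was 4.63 without E6-ER (edgeR adjusted p = 0.00218) and 5.62 with the embryo as a block (edgeR adjusted p = 0.029), and missed the threshold only within the last 4 pools (edgeR adjusted p = 0.13). The difference to LB HYPO missed it within the last 4 pools (0.156) and with all 7 cell types in one edgeR model (adjusted p = 0.232).

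Between the lineages of the late blastocyst, IL6R was higher in hypoblast, by 5.67 on the log2 scale (SE 1.07, edgeR adjusted p = 0.0157). With the embryo as a block the difference was 7.39 but the edgeR adjusted p was 0.0956. Without LB EPI embryo AP it was 0.0506 and without AQ 0.0504, and within the first and the last 4 pools it was 0.09 and 0.117. In the spherical embryo the difference was 6.10 in the same direction (SE 1.76), with an edgeR adjusted p of 0.153, which limma on mean log2(TPM + 1) put at 0.0014, DESeq2 at 0.00905 and edgeR with all 7 cell types together at 0.0298. The lineage difference did not change detectably between the stages (interaction 0.49 on the log2 scale, SE 1.73, edgeR adjusted p = 1, a test added after the data were seen).

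IL6ST, the signal-transducing chain, was the most widely shared of the 3 receptor genes. It was above TPM 1 in 44 of 47 M cells (median 72.5 TPM), 24 of 24 EB ICM cells (median 184 TPM), 16 of 28 EB TE cells, 13 of 25 LB EPI cells, 32 of 36 LB HYPO cells (median 42 TPM), 17 of 48 Sph EPI cells and 4 of 12 Sph HYPO cells. Mean log2(CPM + 1) over embryos fell in the order EB ICM 8.04 ± 1.30 (SD, n = 7), M 6.96 ± 1.11 (SD, n = 8), LB HYPO 5.7 ± 3.05 (SD, n = 5), EB TE 5.30 ± 2.06 (SD, n = 10), Sph EPI 4.92 ± 1.38 (SD, n = 4), LB EPI 4.30 ± 2.83 (SD, n = 4) and Sph HYPO 3.72 ± 3.24 (SD, n = 3). The embryo ranges of every pair of neighbours in this order overlapped. Without E6-ER the EB TE mean was 5.89 ± 0.95 (SD, n = 9), above that of LB HYPO, and 16 of 27 EB TE cells were above TPM 1.

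A few embryos made much of that spread. In embryo AN, IL6ST had 1 count in its 2 EPI cells and 1 count in its 3 HYPO cells, log2 levels of 0.32 and 0.28, while the other 3 LB EPI embryos lay between 4.38 and 6.73 and the other 4 LB HYPO embryos between 6.72 and 7.61. The 2 Sph HYPO cells of embryo E had none, against 5.90 in embryo C and 5.26 in embryo F. The lone ICM cell of embryo AD, at 5.30, was below the other 6 ICM embryos (7.58 to 8.92).

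EdgeR called IL6ST in 1 comparison, higher in EB ICM than in Sph EPI by 2.87 on the log2 scale (SE 0.76, edgeR adjusted p = 0.0365). That call was lost without ICM embryo AA (0.0609), AC (0.0699), AE (0.0605), AF (0.0533) or AG (0.0668), and without Sph EPI embryo C (0.101), D (0.0998) or F (0.0997), all edgeR adjusted p. It was also lost within either set of 4 pools (0.0518 and 0.0661) and with all 7 cell types together (0.124). Between EB ICM and EB TE the difference was 2.37 (SE 0.73, edgeR adjusted p = 0.113), and without E6-ER, which had no IL6ST count, it was 2.20 with an edgeR adjusted p of 0.034. With single-cell sums left out it was 2.77 (edgeR adjusted p = 0.00214). DESeq2 and limma also called IL6ST there (adjusted p = 0.04995 and 0.0465) and in EB ICM over LB EPI, where the log2 differences were 2.84 and 4.65 (adjusted p = 0.0331 and 0.0107) and that of edgeR was 2.82 (adjusted p = 0.135).

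LIFR, the LIF-binding chain, was sparse everywhere. It was above TPM 1 in 16 of 47 M cells, 6 of 24 EB ICM cells, 1 of 28 EB TE cells, 6 of 25 LB EPI cells, 13 of 36 LB HYPO cells, 6 of 48 Sph EPI cells and 5 of 12 Sph HYPO cells, and no cell exceeded 35.5 TPM. The highest group mean over cells was 4.12 TPM in Sph HYPO, and that of EB TE was 0.343 TPM. In EB TE 8 of 10 embryos had no LIFR count, with 14 counts in embryo AF and 81 in embryo AI. Mean log2(CPM + 1) of LIFR was 4.37 ± 1.02 (SD, n = 5) in LB HYPO, 4.37 ± 1.48 (SD, n = 4) in LB EPI, 3.98 ± 2.18 (SD, n = 8) in M, 3.48 ± 2.20 (SD, n = 7) in EB ICM and 0.68 ± 1.46 (SD, n = 10) in EB TE, and neighbouring groups overlapped. EdgeR, DESeq2 and limma called LIFR in none of the 10 comparisons under any setting (1 at an unadjusted edgeR p under 0.05), the nearest being M over EB TE with a log2 difference of 4 (SE 1.64, edgeR adjusted p = 0.138).

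STAT3, the transcription factor, was above TPM 1 in 24 of 24 EB ICM cells (median 389 TPM), 23 of 25 LB EPI cells (median 73.4 TPM), 38 of 48 Sph EPI cells (median 41.2 TPM), 31 of 47 M cells (median 32.3 TPM), 24 of 36 LB HYPO cells (median 33.4 TPM), 13 of 28 EB TE cells (median 0.392 TPM) and 4 of 12 Sph HYPO cells. In EB ICM its log2(CPM + 1) was 8.84 ± 1.05 (SD, n = 7), from 6.646 in embryo AD to 9.88 in embryo AA. M had 6.29 ± 1.02 (SD, n = 8), and Sph EPI embryos C, D, E and F had 5.27, 6.35, 6.25 and 6.63. LB EPI embryos AN, AO, AP and AQ had 2.67, 8.38, 6.96 and 6.42, and LB HYPO embryos AL, AM, AN, AO and AP had 0, 5.31, 0.28, 7.63 and 6.71. Embryo AN was again low in both lineages, with 22 counts in EPI and 1 in HYPO. EB TE embryos ran from 0 (AA, AE and AI) to 7.36 (E6-ER). Without E6-ER the highest was 7.12, and 12 of 27 EB TE cells were above TPM 1 (median 0.305 TPM).

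STAT3 was higher in EB ICM than in M by 2.59 on the log2 scale (SE 0.45, edgeR adjusted p = 0.00343) and higher than in Sph EPI by 2.87 (SE 0.51, edgeR adjusted p = 0.00373). Neither call was lost without any one embryo. With all 7 cell types in one edgeR model both were lost (adjusted p = 0.185 and 0.235), as was the first within the first 4 pools (edgeR adjusted p = 0.0833). The difference of EB ICM to EB TE was 3.49 (SE 1.11, edgeR adjusted p = 0.113), which was 0.0133 by limma on mean log2(TPM + 1) and 0.0493 with all 7 cell types together. Leaving out each sum in turn, E6-ER included, the difference ran from 3.26 to 3.91 and was not called (edgeR adjusted p from 0.0983 to 0.135). Between LB EPI and LB HYPO it was 0.97 (SE 1.44, edgeR adjusted p = 0.838), and between Sph EPI and Sph HYPO, whose embryo levels did not overlap, 3.36 (SE 1.53, edgeR adjusted p = 0.33). STAT3 in Sph HYPO embryos C, E and F was 1.51, 0 and 4.35.

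**Figure D2:**
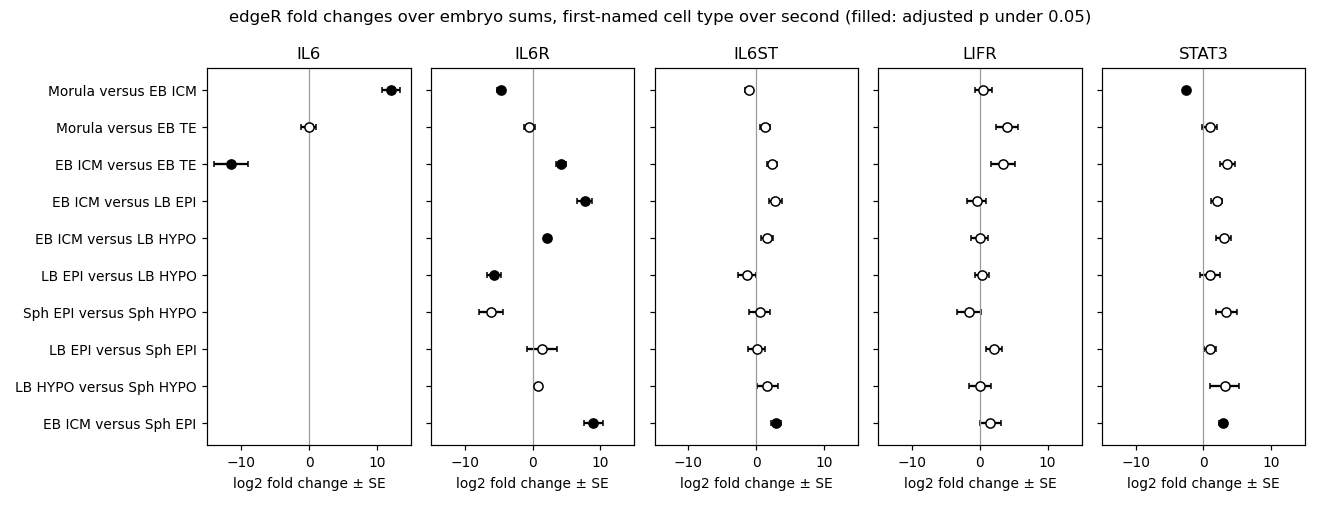
Fitted log2 fold change ± SE (x axis) of each gene in the 10 comparisons (y axis), over embryo sums, positive where the first-named cell type was higher; filled points had an edgeR adjusted p under 0.05. IL6 has no point where neither group held a count, and IL6R is filled in 6 comparisons, STAT3 in 2, IL6 in 2, IL6ST in 1 and LIFR in none.

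The 5 genes and the comparisons were chosen with earlier results of these data known, so that the following counts are descriptive. Comparisons with EB ICM share its 7 sums and are not independent of one another. Counted by comparison, 3 of the 5 genes were called between M and EB ICM, where 2.45% of all genes tested were called. Between EB ICM and Sph EPI 3 were called, against 6.73% of all genes. Between EB ICM and EB TE 2 were called, against 0.754%. One, IL6R, was called between EB ICM and LB EPI (2.91% of all genes), between EB ICM and LB HYPO (2.1%) and between LB EPI and LB HYPO (1.92%). EdgeR called none between M and EB TE (0.808%), Sph EPI and Sph HYPO (1.13%), LB EPI and Sph EPI (0.156%) or LB HYPO and Sph HYPO (0.163%). At an unadjusted p under 0.05 the counts in these 4 were 1, 1, 0 and 0, and DESeq2 and limma each called 0, 1, 0 and 0. In the Sph EPI and Sph HYPO comparison the median log2 difference of all genes was 0.57 toward EPI rather than 0, and in that of EB ICM and Sph EPI it was 0.30 toward EPI.

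The 2 receptor chains, IL6R and IL6ST, were counted together in each cell. IL6R shed by other cells is not covered by such a count. Both were above TPM 1 in 24 of 24 EB ICM cells (lower interval limit 85.8%) and 32 of 36 LB HYPO cells (88.9%, interval 73.9 to 96.9%). The share was 16 of 47 in M (34%, interval 20.9 to 49.3%), 10 of 28 in EB TE (35.7%, interval 18.6 to 55.9%), 5 of 25 in LB EPI, 3 of 48 in Sph EPI (6.25%, interval 1.31 to 17.2%) and 4 of 12 in Sph HYPO. The chain that was missing differed: 28 of 47 M cells had IL6ST without IL6R and 1 had IL6R without IL6ST, whereas 8 of 12 Sph HYPO cells had IL6R without IL6ST and none had the reverse. STAT3 was also above TPM 1 in all 24 EB ICM cells that had both chains, in 23 of the 32 LB HYPO cells, in 13 of the 16 M cells and in 4 of the 10 EB TE cells.

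**Figure D3:**
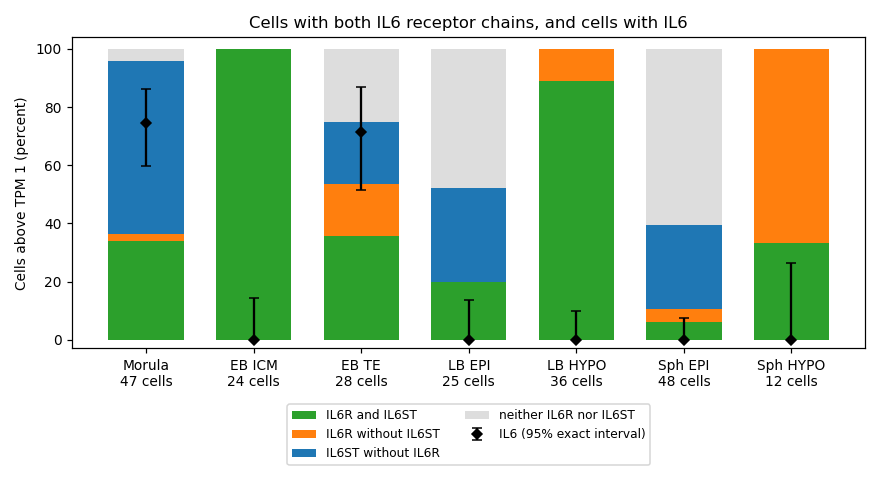
Percent of cells (y axis) with IL6R and IL6ST above TPM 1 together, one of them, or neither, in the 7 cell types; diamonds give the percent with IL6 and its 95% exact interval. Every EB ICM cell has both chains and none has IL6, LB HYPO is at 88.9% for both chains, and IL6 is above 0 only in M and EB TE.

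Cells with the ligand and both receptor chains at once were found in M (13 of 47) and EB TE (5 of 28). In EB TE 12 of 28 cells had IL6 without IL6R and 7 had IL6R without IL6. The share of epiblast cells with STAT3 but no IL6R was 18 of 25 in LB EPI and 33 of 48 in Sph EPI, while it was 0 in EB ICM and in both hypoblast groups.

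Ligand and receptor could be set side by side within an embryo in the 7 EB embryos that had cells of both lineages. IL6 was present in the TE cells of 5 of these, AA, AC, AD, AF and AI, and in the ICM cells of none. IL6R was higher in ICM in 7 of 7, by 2.04 to 9.99 on the log2(CPM + 1) scale (median 5.16). STAT3 was higher in ICM in 7 of 7, by 1.78 to 9.88 (median 8.67), and IL6ST in 6 of 7 (median 2.37), embryo AD being the exception. In embryo AF, for example, the mean level of IL6 was 328 TPM in 1 TE cell and 0 in 4 ICM cells, and that of IL6R was 5.22 TPM in TE and 990 TPM in ICM. In embryo AA, IL6 was at 200 TPM in TE and IL6R at 0.21 TPM in TE and 484 TPM in ICM. Embryo E6-ER is not among these 7. The ICM and TE labels were drawn from the same transcriptomes as these levels.

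**Figure D4:**
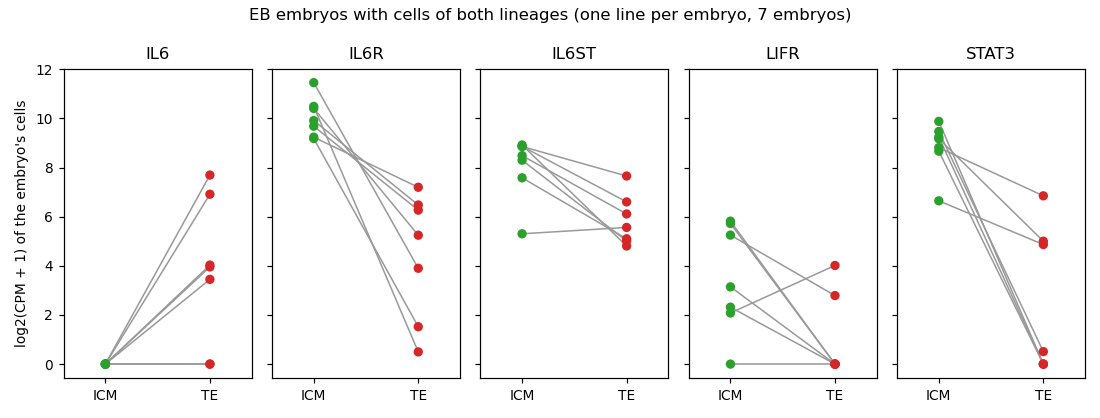
Summed level, log2(CPM + 1) (y axis), of each gene in the ICM and TE cells of the 7 EB embryos that had both, one line per embryo. All 7 lines fall from ICM to TE for IL6R and STAT3, and for IL6 5 rise from 0 and 2 stay at 0.

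The other genes of the pathway were taken from a list of 58, of which 38 had an entry and 36 were tested. The list was chosen with results of these data known, so that its counts are descriptive. Of the 7 other ligands of the family that were listed, 2 had an entry, CLCF1 and CTF1. LIF, IL11, CNTF, OSM and IL27 had none under these symbols and could not be ranked. CLCF1, the higher of the 2, was above TPM 1 in 6 of 47 M cells, 5 of 12 Sph HYPO cells and at most 2 cells of any other group. Of the other receptors, IL11RA, the IL11-binding chain, was above TPM 1 in 31 of 48 Sph EPI cells and in 0 of 24 EB ICM cells. It rose from EB ICM to Sph EPI (log2 difference of EB ICM -10.04, SE 1.45, 2 counts against 4097, edgeR adjusted p = 0.000743), and the call held under every setting. IL27RA, the IL27-binding chain and the highest of these, was above TPM 1 in 35 of 48 Sph EPI cells and 10 of 24 EB ICM cells and was not called.

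Kinases were low, and none of the 4 was called. JAK1, the highest of them, was above TPM 1 in 28 of 47 M cells (median 4.65 TPM), 9 of 24 EB ICM cells and 15 of 48 Sph EPI cells. ADAM10, a protease that sheds membrane proteins including IL6R, was higher in LB HYPO than in LB EPI (log2 difference 2.00, SE 0.34, edgeR adjusted p = 0.00961), with embryo means of 196 ± 33.7 TPM (SD, n = 5) and 47.1 ± 11.6 TPM (SD, n = 4). With the embryo as a block its edgeR adjusted p was 0.164, with all 7 cell types together 0.226, and within the first and last 4 pools 0.283 and 0.393.

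Among the other STATs, STAT2, which acts in interferon signalling, followed EB ICM. It was above TPM 1 in 24 of 24 EB ICM cells (median 177 TPM), 31 of 47 M cells (median 11.7 TPM) and 13 of 48 Sph EPI cells. It was higher in EB ICM than in M by 2.43 (edgeR adjusted p = 0.00968), than in LB EPI by 3.76 (edgeR adjusted p = 0.0101) and than in Sph EPI by 4.31 (edgeR adjusted p = 0.000143). None of these calls was lost without any one embryo, but all 3 were lost with all 7 cell types in one edgeR model (adjusted p = 0.243, 0.155 and 0.0966). Within pools STAT2 was lost against M in the first 4 (edgeR adjusted p = 0.217), against LB EPI in the first and last 4 (0.207 and 0.178) and against Sph EPI in the last 4 (0.117). STAT4, which acts downstream of interleukin 12 in lymphocytes, had no count in M, EB ICM or EB TE and was above TPM 1 in 8 of 25 LB EPI and 14 of 48 Sph EPI cells. It was at least 367-fold higher in Sph EPI than in EB ICM (0 against 2399 counts, edgeR adjusted p = 0.0338), a call lost without EB ICM embryo AA (0.0518) or AG (0.0502) and without Sph EPI embryo C (0.0655), D (0.0779) or F (0.0893), by limma (0.056) and within the first and last 4 pools (0.07 and 0.189).

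Of the 15 inhibitors listed, 9 had an entry and were tested. Among these PTPN2, a phosphatase of JAKs and STATs, had the highest level and was not called, with medians of 135 to 263 TPM across the 7 cell types. SOCS5, a suppressor of cytokine signalling, was above TPM 1 in 14 of 25 LB EPI and 33 of 48 Sph EPI cells and in 1 of 24 EB ICM cells. The log2 difference of EB ICM was -9.54 to LB EPI (SE 1.54, edgeR adjusted p = 0.0029, and 0.0696 within the first 4 pools) and -9.06 to Sph EPI (SE 1.52, edgeR adjusted p = 0.00221). It was at least 164-fold higher in M than in EB TE (843 counts against 0, edgeR adjusted p = 0.0292), a call lost without M embryo ER (0.0506), S (0.0598), T (0.0513), U (0.0601) or W (0.0545) and within either set of 4 pools (0.242 and 0.151). Of the adaptors, SHC1 was the highest and none was called.

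Of 16 known STAT3 target genes listed, 8 were tested, and those called did not move together. KLF5, TFCP2L1, PIM3, MCL1, BCL2L1, CCND1 and CEBPB had no entry under these symbols. KLF4, a pluripotency factor, was above TPM 1 in 47 of 47 M cells, 23 of 24 EB ICM cells, 7 of 25 LB EPI cells and 7 of 48 Sph EPI cells. It was higher in EB ICM than in LB EPI by 3.78 (edgeR adjusted p = 0.00539), than in LB HYPO by 4.73 (edgeR adjusted p = 0.014) and than in Sph EPI by 5.71 (edgeR adjusted p = 0.00202). With all 7 cell types together the first 2 were lost (edgeR adjusted p = 0.11 and 0.063), and within the last 4 pools all 3 were (0.17, 0.235 and 0.134). MYC, a growth regulator, went the other way. MYC was above TPM 1 in 1 of 24 EB ICM cells, 33 of 36 LB HYPO cells and 48 of 48 Sph EPI cells. The log2 difference of EB ICM was -8.87 to LB HYPO (edgeR adjusted p = 0.00213, and 0.157 within the last 4 pools) and -8.31 to Sph EPI (edgeR adjusted p = 0.0053). Its calls in M (6.37 over EB ICM, edgeR adjusted p = 0.0485) and LB EPI (EB ICM lower, log2 difference -7.10, edgeR adjusted p = 0.0458) held without only 2 of 15 and 1 of 11 sums, with an edgeR adjusted p of up to 0.0872 and 0.0909.

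PIM1, a kinase gene, was higher in Sph EPI than in EB ICM by 2.45 (SE 0.66, edgeR adjusted p = 0.0385), with embryo means of 126 ± 47.4 TPM (SD, n = 4) and 27.5 ± 18.5 TPM (SD, n = 7). PIM1 was lost without EB ICM embryo AA (0.0591), AE (0.0596) or AG (0.0668) and without any one Sph EPI embryo (up to 0.0973), without TMM (0.0552), by limma (0.0547) and within the first and last 4 pools (0.12 and 0.103). FOS had the highest level of the 8 tested targets and was not called.

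**Figure D5:**
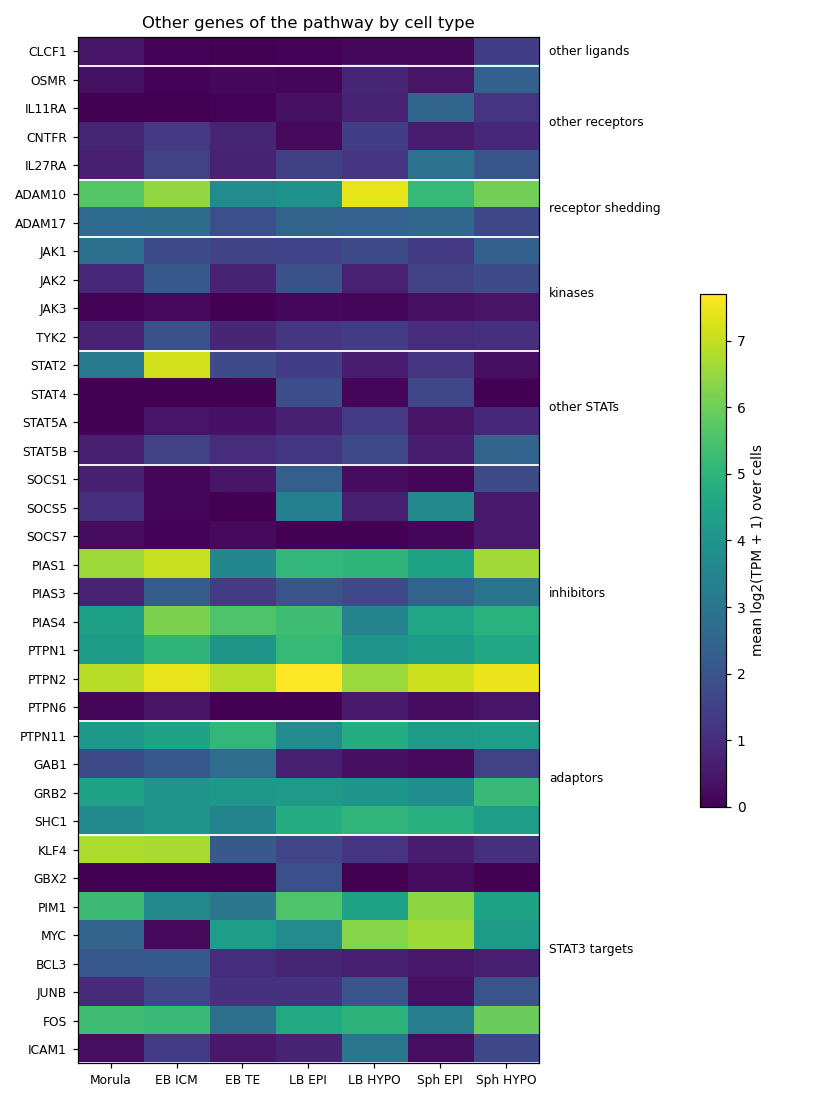
Mean log2(TPM + 1) over cells (colour) of the 36 tested pathway genes other than the 5 (rows, grouped by role) in the 7 cell types (columns). STAT2 and KLF4 are high in EB ICM, ADAM10 peaks in LB HYPO, and SOCS5, IL11RA and MYC are near 0 in EB ICM and higher in Sph EPI.

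Over the 36 genes, the median log2 difference was furthest from that of all genes between Sph EPI and Sph HYPO (-0.21 against 0.57, opposite in sign) and between LB EPI and Sph EPI (0.60 against 0), and edgeR called none of the 36 in either (4 and 3 at an unadjusted p under 0.05, 3 and 1 by DESeq2, 2 and 1 by limma). It was -0.27 between EB ICM and LB HYPO (0 over all genes), with 1 called in each direction. The list median was -0.33 between M and EB ICM (0.02 over all genes), with 1 of them called in each direction, and 0.56 between EB ICM and EB TE (0 over all genes), with none called by edgeR (8 at an unadjusted p under 0.05, 2 by DESeq2 and 1 by limma). Between EB ICM and Sph EPI it was -0.07 (-0.30 over all genes), with 2 called higher in EB ICM and 5 higher in Sph EPI.

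The genes whose level over the 41 sums was most like that of each member were named by Pearson's r of log2(CPM + 1). The sums share library depth and cell type composition, so that r is a description. For IL6 they were GRHL2 (r = 0.83), an epithelial transcription factor, RAB3IL1 (0.785) and SH3BP5 (0.757). For IL6R they were PRR13 (0.80), SLC7A9 (0.761) and WWTR1 (0.754), the last a Hippo pathway coactivator. For IL6ST they were PRPF4 (0.758), OSTM1 (0.731) and STARD3 (0.71), for LIFR CSNK1G3 (0.703), NOP56 (0.572) and SPTAN1 (0.547), and for STAT3 SIKE1 (0.721), CMKLR2 (0.71) and GPR137 (0.701).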

How the data were processed

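Per the labels and the study's methods, the authors trimmed the paired Smart-seq2 reads, aligned them with HISAT2 2.1.0 to the Sscrofa10.2 pig genome, counted uniquely mapped reads per Ensembl gene with HTSeq, and removed shallow cells and cells rich in mitochondrial reads. The deposited files hold unnormalized counts for every gene in each cell, and TPM values that the authors scaled by gene length. Symbols came from the gene name table given with the data (11437 Ensembl entries matched). No cells held identical counts, and 0 columns were left unmapped.

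Counts were summed per label and embryo, the embryo being read from the letters of the cell identifier. Each of 10 pairs of cell types was fitted over the embryo sums of both groups with edgeR 4.0.16 (R 4.3.3; TMM normalization, quasi-likelihood test, Benjamini-Hochberg over the 14721 genes above TPM 1 in at least 3 cells, threshold 0.05). SEs are the absolute log2 fold change over the root of F. DESeq2 1.42.0 and limma 3.58.1 on mean log2(TPM + 1) per embryo were alternatives, with others listed in the closing section. The fits were tested on data drawn with known changes. The 1 M cell whose identifier gives no M embryo entered the shares of cells and no fit. The paper took the embryos of each stage from multiple sows, but which embryo came from which sow is not given. The p-values therefore measure the spread between embryos.

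Lineages of one embryo share an animal, which pairs them. Their deviations correlated weakly (median r over genes 0.046 at EB with 7 pairs, 0.023 at LB and 0.067 at Sph with 3 each; between different embryos -0.007, -0.021 and -0.037). The genes and the pathway, marker and comparison lists were chosen with earlier results of these data known. Named were all 5 members, every pathway gene called in a comparison, the highest gene of each role and the 3 genes most like each member.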

Additional observations from a re-analysis of the deposited data

Results flagged for a closer look

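In 26 groups of 4 to 10 embryos with any spread, each embryo's log2(CPM + 1) was compared with its nearest neighbour relative to the range (Dixon's 95% critical values). Chance flags about 1 group in 20, and 4 values were flagged.

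Embryo AD, whose ICM sum is 1 cell, was lowest of 7 EB ICM embryos for IL6ST (5.30, others 7.58 to 8.92) and for STAT3 (6.646, others 8.66 to 9.88). Embryo E6-ER, 1 cell labelled EB TE, had an IL6ST level of 0 against 4.81 to 7.65 in the other 9 embryos. Embryo AN, with 3 LB HYPO cells and 1 IL6ST count, was at 0.28 against 6.72 to 7.61 in the other 4. The difference of the EPI to HYPO contrast between the LB and Sph stages was tested for the 4 members with counts, and none passed (lowest edgeR adjusted p = 0.878).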

How the results depend on the processing

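Alternatives were DESeq2, limma on mean log2(TPM + 1), no TMM, no filter, sums of at least 2 cells, all 7 cell types in one model, the embryo as a block, either 4 library pools, leaving out each sum, and other TPM thresholds and pseudocounts. Among refits of the 5 genes other than leave-one-out, 340 kept direction and side of the threshold, 17 lost and 12 gained a call, and 20 reversed. No reversed difference was called, and the cause was not tested.

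The number of the 5 genes called between EB ICM and EB TE was 1 with the embryo as a block, 1 in the first and 0 in the last 4 pools, 1 to 3 leaving out each sum, and 3 by DESeq2, by limma and with all 7 cell types together (2 in the report). It was 2 by DESeq2 and limma for EB ICM and LB EPI (1 in the report). For EB ICM and LB HYPO it was 2 by limma and 0 with all 7 cell types together and in the last 4 pools (1 in the report). For LB EPI and LB HYPO it was 0 with the block and in either set of pools, and 0 to 1 leaving out each sum (1 in the report). For Sph EPI and Sph HYPO it was 1 by DESeq2, limma and all 7 cell types together (0 in the report), and for EB ICM and Sph EPI it was 1 with all 7 together (3 in the report).

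Reversed log2 differences (first minus second group) were these. By limma, LIFR was -0.058 in M and EB ICM, 0.053 in EB ICM and LB EPI and -0.23 in LB EPI and LB HYPO, IL6 was 0.78 in M and EB TE, and IL6ST was -0.053 in Sph EPI and Sph HYPO. In the last 4 pools LIFR was -1.57, 1.70 and -2.39 in the same 3 pairs, IL6 was 0.37 in M and EB TE and IL6ST -0.43 in LB EPI and Sph EPI. In the first 4 pools IL6R was 0.64 in M and EB TE, IL6ST -1.54 in Sph EPI and Sph HYPO, and LIFR -1.10 in LB HYPO and Sph HYPO and -0.54 in EB ICM and Sph EPI. Without TMM LIFR was 0.14 in EB ICM and LB HYPO and IL6ST -6.49e-05 in LB EPI and Sph EPI. With sums of at least 2 cells IL6 was 0.078 in M and EB TE, and without cell E6-ER IL6R was 0.0063 there. With the embryo as a block IL6ST was -0.072 and LIFR 0.11 in Sph EPI and Sph HYPO. Beyond the calls named here and in the report, the block changed no call of the 5 genes.

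Leaving out each sum, M and EB TE gave -0.21 to 0.50 for IL6 and -0.83 to 0.0063 for IL6R. LIFR ran from -0.85 to 0.77 for EB ICM and LB EPI, -0.44 to 0.32 for EB ICM and LB HYPO, -0.85 to 0.72 for LB EPI and LB HYPO, -2.14 to 0.41 for Sph EPI and Sph HYPO and -0.45 to 1.96 for LB HYPO and Sph HYPO. IL6ST ran from -0.77 to 1.28 for Sph EPI and Sph HYPO and from -0.81 to 1.30 for LB EPI and Sph EPI.

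Over all genes, DESeq2 called 342 to 2059 per comparison against 23 to 990 by edgeR, and the first 4 pools 15 to 452. LIFR shares moved with the TPM threshold (M from 34% to 8.51% above TPM 10). Groups of 3 to 5 embryos and sums of 1 cell limit precision.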

Other observations

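The low IL6ST and STAT3 values of embryo AN were looked at more widely. In its 2 EPI and 3 HYPO cells together, 29 genes were under 1 CPM in both sums although they exceeded 10 CPM in all 7 other LB sums, out of 3046 genes over 10 CPM in those 7. They included SUZ12, a Polycomb subunit, XIAP, an inhibitor of apoptosis, E2F8, PRPF4 and IL6ST itself. PRPF4 was the gene most like IL6ST over all sums, but those sums include the 2 of AN, so this is no separate observation. The same count of low genes was 2 of 2851 in embryo AP, with 10 cells, and 0 of 2590 in embryo AO, with 21 cells. The 5 AN cells are fewer than those of AP or AO, and that part was not tested.

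The cell labelled M that was placed in no embryo has an identifier, AO23_e5, that begins with the letters of LB embryo AO and with the name of an LB HYPO cell, so its label is in doubt. It was counted in the M shares above and in no sum or fit. It had 12.1 TPM of IL6, 0.27 of IL6R, 28.5 of IL6ST, 3.38 of LIFR and 47.4 of STAT3. It also carried KLF4 at 139 TPM, KLF17 at 40.4 TPM and DAB2 at 229 TPM, and no count of FN1 or PDGFRA.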
